A study of Mus musculus with 22 samples.

Results

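The growth hormone (GH) and insulin-like growth factor (IGF) axis of the liver was examined through 10 genes, taken by their symbols from a table of read counts for 55573 mouse genes: Ghr, Stat5b, Socs2, Cish, Igf1, Igfals, Igfbp1, Igfbp2, Igfbp3 and Igfbp4. All 10 were found. All 10 had a mean count of at least 10 over the 22 livers and were among the 14062 genes that entered the tests.

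GH from the pituitary binds its receptor on hepatocytes, which activates the kinase JAK2 and the transcription factor STAT5B. STAT5B drives Igf1, the source of most circulating IGF1, and Igfals, and it also drives Socs2 and Cish, whose products feed back on the receptor. In blood IGF1 is carried by IGF-binding proteins, and IGFBP3 holds it in a long-lived complex with the acid-labile subunit that Igfals encodes. In rodents GH is released in sharp pulses in males and more evenly in females, and this pattern sets much of the sex difference in liver gene expression. The axis is known to be lowered by fasting and by diets short of amino acids.

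The livers came from C57BL/6 mice of 3 months in 4 groups, with 1 library per liver. FLCN KO mice carried Flcn f/f with Albumin-Cre, which recombines the floxed gene in hepatocytes and can also do so in bile duct cells, which share their origin, and Cre mice carried Flcn WT/WT with Albumin-cre+/-, so that both genotypes carried the Cre transgene. From 6 weeks of age and for 6 weeks, mice ate a low-fat control diet (chow) or a diet lacking methionine and choline (MCD), which causes steatohepatitis together with weight loss. There were 6 Cre Chow, 5 Cre MCD, 5 FLCN KO Chow and 6 FLCN KO MCD libraries, with 13751347 to 21144388 counted reads each.

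The labels do not give the sex of the mice, which bears directly on a GH readout, so it was read from the counts. In 12 livers Xist, which is transcribed from the inactive X chromosome of females, stood at 256 to 430 CPM (read counts scaled to a common library size), and in the other 10 it stood at 1.17 CPM or below while 4 Y-linked genes (Ddx3y, Eif2s3y, Kdm5d and Uty) summed to 123 to 209 CPM. Each group held both kinds: 3 livers with Xist and 3 with Y-linked counts in Cre Chow and in FLCN KO MCD, and 3 and 2 in Cre MCD and in FLCN KO Chow. Of the 12 livers with Xist, 5 also held Y-linked counts, at 9.42 to 31.9 CPM, and these were Cre Chow 2, Cre MCD 1, FLCN KO Chow 2, FLCN KO Chow 4 and FLCN KO MCD 3. The 5 chow livers with Y-linked counts and no Xist were also the 5 libraries with a uniquely mapped share under 75% (the poorly mapped chow libraries), so that sex and mapping cannot be told apart among the chow livers. Library Cre MCD 3 held 3930 CPM of 15 skeletal muscle markers, against 185 CPM in Cre MCD 4, 88.9 CPM in FLCN KO MCD 3 and at most 24.4 CPM in every other library.

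Flcn, the gene targeted in the FLCN KO mice, stood at 31.7 ± 4.91 CPM in Cre Chow (SD, n = 6) and at 20.4 ± 2.78 CPM in FLCN KO Chow (n = 5). On chow Flcn was lower in FLCN KO livers by a log2 fold change of -0.63 (SE 0.17, adjusted p = 0.025, edgeR), and the groups did not overlap. On MCD the levels were 29.2 ± 8.42 CPM (n = 5) and 26.0 ± 5.13 CPM (n = 6), a log2 fold change of -0.16 (adjusted p = 0.57). MCD changed Flcn past the threshold in neither genotype over all livers, but in the FLCN KO livers with Xist it was higher on MCD (0.51, SE 0.17, adjusted p = 0.034). The chow difference was called in 19 of 22 fits that left out 1 mouse and in 8 of 13 other fits. It was not called without the 5 poorly mapped chow libraries (-0.55, SE 0.24, adjusted p = 0.24) or without the 5 libraries with both Xist and Y-linked counts (-0.60, SE 0.23, adjusted p = 0.21), and within livers with Xist and livers with Y-linked counts Flcn was at -0.55 (SE 0.18, adjusted p = 0.098) and -0.69 (SE 0.24, adjusted p = 0.24). The counts cover the whole gene and all cells of the liver, so they do not show directly how much of the targeted exon was lost.

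MCD feeding lowered the receptor end of the axis and its growth factor output in both genotypes, and raised both Igfbp1 and Igfbp2. In Cre mice 7 of the 10 genes passed the threshold of an adjusted p under 0.05: 2 increased and 5 decreased, where 57.5% of all tested genes passed (29.3% up, 28.2% down). In FLCN KO mice 7 passed as well, 2 up and 5 down, against 45% of all genes (22.5% up, 22.5% down), so neither count by itself set these genes apart. The median log2 fold change over the 10 genes was -0.71 in Cre mice and -0.40 in FLCN KO mice, beside 0.01 and 0.00 over all genes. Between genotypes none of the 10 passed on chow, where 8.62% of all genes did. On MCD 4 of the 10 were higher in FLCN KO livers and none was lower, where 16.6% of all genes were called and 8.06% were called higher.

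**Figure D1:**
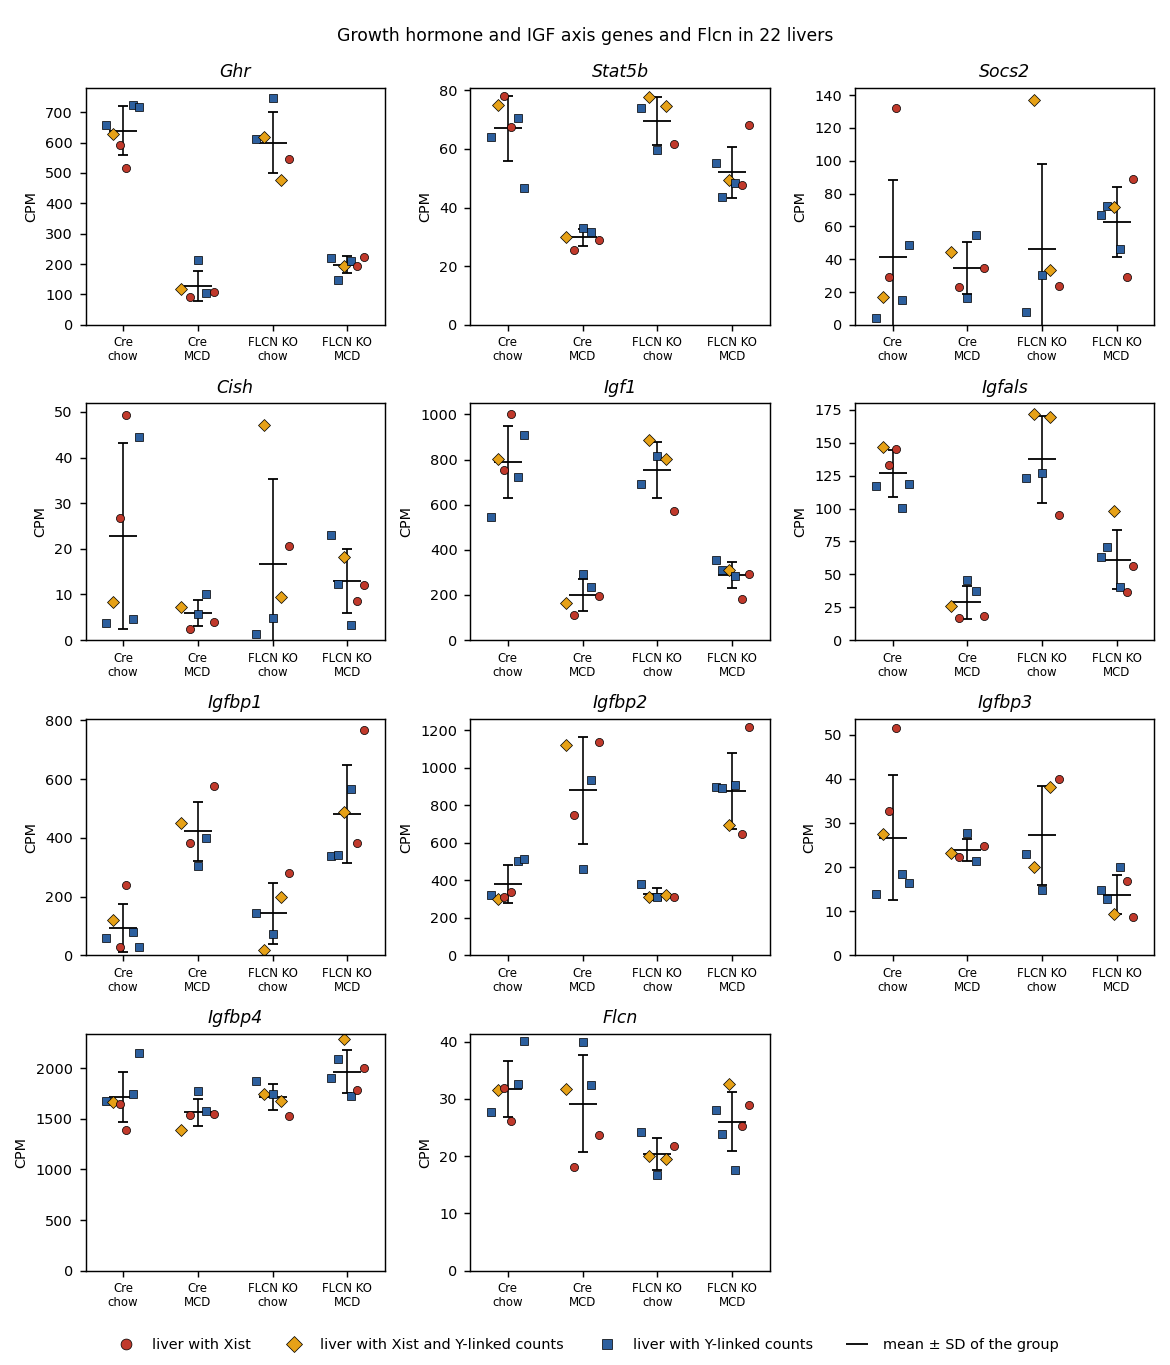
CPM (y axis, from 0) of the 10 axis genes and of Flcn in each of 22 livers, by group on the x axis. Circles are livers with Xist, diamonds livers with Xist and Y-linked counts, squares livers with Y-linked counts, and black bars the group mean ± SD. The MCD livers lie below all chow livers of their own genotype for Ghr and Igf1 and above them for Igfbp1, while Socs2 and Cish spread widely within the chow groups.

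Ghr encodes the GH receptor (chromosome 15, 3317760 to 3583492, minus strand, GRCm38). In Cre Chow its lowest, median and highest levels were 516, 643 and 725 CPM, and in the 5 Cre MCD livers it stood at 93.2, 106, 107, 116.6 and 214 CPM. The mean fell from 639 ± 79.3 to 127 ± 49.2 CPM, a log2 fold change of -2.33 (SE 0.19, adjusted p = 1.7e-09), or 5.02-fold. The highest Cre MCD value was that of library Cre MCD 3, and no MCD liver came near any chow liver. In FLCN KO mice Ghr stood at 475, 547, 612, 620 and 745 CPM on chow and at 148, 202 and 222 CPM (lowest, median, highest) on MCD. The fall there was -1.60 (SE 0.17, adjusted p = 2.7e-07), again without overlap. It was called in every fit that left out 1 mouse and in the fits restricted to either sex. Groups did not overlap in 5 of the 10 genes in Cre mice and in 4 of 10 in FLCN KO mice, beside 32.5% and 29.2% of all genes.

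Stat5b encodes the transcription factor that the receptor activates (chromosome 11, 100780731 to 100850724, minus strand). It stood at 46.7, 69.0 and 77.9 CPM (lowest, median, highest) in Cre Chow and at 25.5, 29.0, 30.1, 31.6 and 33.0 CPM in Cre MCD. In FLCN KO Chow it stood at 59.8, 61.7, 74.1, 74.8 and 77.8 CPM, and in FLCN KO MCD at 43.6, 49.0 and 68.0 CPM. The Cre MCD livers thus formed a tight low group that no other liver reached. Stat5b fell by 1.17 on the log2 scale (SE 0.13, adjusted p = 1.2e-07) with MCD in Cre mice, and by 0.42 (SE 0.12, adjusted p = 0.0078) in FLCN KO mice, where the 2 diets overlapped. It was the only one of the 10 genes whose response to diet differed between genotypes past the threshold (interaction 0.75, SE 0.17, adjusted p = 0.012), where 8.83% of all genes passed. Without Cre MCD 3 the interactions of Ghr (1.00, SE 0.18, adjusted p = 0.0018) and Igfals (1.19, SE 0.34, adjusted p = 0.031) passed as well. Within livers with Y-linked counts the fall of Stat5b in FLCN KO mice was -0.46 (SE 0.18, adjusted p = 0.10). There the Stat5b interaction was 0.42 (SE 0.26, adjusted p = 0.62), and without the 5 libraries that hold both Xist and Y-linked counts it was not called either, nor was the fall of Stat5b in FLCN KO mice (-0.31, SE 0.16, adjusted p = 0.15).

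Socs2 and Cish, the feedback inhibitors that STAT5 rapidly induces after a GH pulse, spread widely within the chow groups. Socs2 (chromosome 10, 95385362 to 95417180, minus strand) stood at 4.43, 23.2 and 132 CPM (lowest, median, highest) in Cre Chow and at 8.09, 23.9, 30.2, 33.3 and 137 CPM in FLCN KO Chow. On MCD it stood at 16.3, 23.1, 34.8, 44.1 and 55.0 CPM in Cre livers and at 29.1, 69.5 and 88.8 CPM in FLCN KO livers. The SD of the chow groups, 47.0 and 51.5 CPM, exceeded their means of 41.0 and 46.5 CPM, and 1 liver in each, Cre Chow 4 and FLCN KO Chow 2, lay far above the rest. Socs2 passed the threshold in none of the 5 tests, with log2 fold changes of -0.25 (SE 0.65, adjusted p = 0.76) and 0.43 (SE 0.65, adjusted p = 0.62) for MCD in Cre and in FLCN KO mice. With an SE of this size, a change as large as the fall of Stat5b in Cre mice would not have passed.

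Cish (chromosome 9, 107296026 to 107302784, plus strand) stood at 3.79, 17.5 and 49.3 CPM (lowest, median, highest) in Cre Chow and at 2.46, 4.00, 5.81, 7.29 and 10.0 CPM in Cre MCD. The FLCN KO livers held 1.25, 4.84, 9.37, 20.7 and 47.1 CPM on chow and at 3.30, 12.2 and 23.0 CPM on MCD. Cish fell with MCD in Cre mice by 1.95 on the log2 scale (SE 0.75, adjusted p = 0.030), although the groups overlapped. The call was lost without any 1 of Cre Chow 4, Cre Chow 6, Cre MCD 2 or Cre MCD 5. The fall of Cish in Cre mice was -2.61 (SE 0.66, adjusted p = 0.0047) in livers with Xist and -1.13 (SE 1.06, adjusted p = 0.45) in livers with Y-linked counts, where it did not pass. In FLCN KO mice the Cish value was -0.38 (SE 0.70, adjusted p = 0.69), and the interaction of 1.57 (SE 1.02, adjusted p = 0.37) did not pass. Of the exon bases of Cish, 740 overlap the opposite-strand genes Gm17040 and Gm17041, and the strand setting of the counting is not given in the sources used here.

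Igf1 encodes the main growth factor of the axis (chromosome 10, 87858265 to 87937042, plus strand). It stood at 545, 777 and 1004 CPM (lowest, median, highest) in Cre Chow and at 110, 164, 198, 233 and 294 CPM in Cre MCD. FLCN KO livers had levels of 571, 690, 803, 814 and 885 CPM on chow and at 184, 300 and 355 CPM on MCD. No MCD liver of either genotype reached the lowest chow liver. Igf1 fell by 1.98 on the log2 scale in Cre mice (SE 0.21, adjusted p = 1.2e-07), a 3.95-fold fall, and by 1.38 (SE 0.20, adjusted p = 1.2e-05), or 2.61-fold, in FLCN KO mice. On MCD the Igf1 level was 200 ± 69.6 CPM in Cre and 288 ± 57.1 CPM in FLCN KO livers, a difference of 0.53 (SE 0.20, adjusted p = 0.081) that did not pass with all libraries but did without Cre MCD 3 or without FLCN KO MCD 5.

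Igfals encodes the acid-labile subunit (chromosome 17, 24865997 to 24882010, plus strand). Its level was 101, 126 and 147 CPM (lowest, median, highest) in Cre Chow and 16.7, 18.6, 25.7, 37.2 and 46.0 CPM in Cre MCD. The FLCN KO values were 95.2, 123, 127, 170 and 172 CPM on chow and 36.6, 59.9 and 98.1 CPM on MCD. It fell by 2.14 on the log2 scale in Cre mice (SE 0.27, adjusted p = 9.1e-07), a 4.39-fold fall without overlap. In FLCN KO mice it fell by 1.17 (SE 0.25, adjusted p = 0.00068), 2.25-fold, and the highest MCD liver, FLCN KO MCD 3, lay within the chow range. Per kilobase of exon, Igf1 transcripts were the more abundant of the pair on chow, at 79.7 ± 16.0 against 40.0 ± 5.71 CPM per kilobase in Cre livers. The falls of Ghr, Igf1 and Igfals with MCD were called in both genotypes in every fit that left out 1 mouse and in every other alternative that was run.

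The windows searched ran from 250 bases before to 50 after each RefSeq start, on both strands. No promoter sequence for Socs2 was at hand, so Socs2 was not searched. The STAT-type palindrome TTCNNNGAA was found in the Cish window, with 2 matches that begin at 0 and 11 bases from its start, and in 2 of the 3 windows of Igfals, where it begins 236 and 58 bases before a start. It was not found in these windows for Ghr, Stat5b, Igf1 or Igfbp1 to Igfbp4, which says only that these letters are not there. The Igfals promoter is shown with the match nearer to a start. The 100 bases lie at chr17:24878111-24878210 on the plus strand (RefSeq, GRCm38.p6), 120 to 21 bases before a RefSeq start of the gene, and the capitals mark the match, which begins 58 bases before that start.
Igfals: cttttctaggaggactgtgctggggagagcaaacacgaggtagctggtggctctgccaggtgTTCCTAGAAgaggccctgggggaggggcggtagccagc
Of 32851 RefSeq promoter windows of 300 bases, 2726 (8.3%) hold TTCNNNGAA. That share is per window, and 3 windows of Igfals were searched. The match is a description of these letters and not a measured binding site. Binding was not measured in these livers.

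Igfbp1 encodes a binding protein whose transcription insulin represses within hours and fasting raises (chromosome 11, 7197782 to 7202546, plus strand). It stood at 28.7, 70.1 and 241 CPM (lowest, median, highest) in Cre Chow and at 304, 382, 398, 449 and 577 CPM in Cre MCD. In FLCN KO livers it stood at 17.4, 73.6, 144, 199 and 279 CPM on chow and at 338, 437 and 768 CPM on MCD. Every MCD liver was above every chow liver of its genotype. Igfbp1 rose by 2.18 on the log2 scale in Cre mice (SE 0.53, adjusted p = 0.0015), 4.53-fold, and by 1.75 (SE 0.55, adjusted p = 0.012), 3.37-fold, in FLCN KO mice. In livers with Xist alone the rises had the same direction but wider errors, at 1.85 (SE 0.77, adjusted p = 0.059) and 1.73 (SE 0.77, adjusted p = 0.089), whereas livers with Y-linked counts gave 2.66 (SE 0.41, adjusted p = 0.00095) and 1.92 (SE 0.44, adjusted p = 0.011). The rise of Igfbp1 in FLCN KO mice was not called without the 5 libraries with both Xist and Y-linked counts (1.53, SE 0.62, adjusted p = 0.071), nor without the 5 poorly mapped chow libraries (1.54, SE 0.64, adjusted p = 0.060). The latter fit keeps only chow livers with Xist, so diet and sex cannot be told apart in it.

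The Igfbp1 promoter is shown for the core of its insulin response element, CAAAACA. The 100 bases lie at chr11:7197637-7197736 on the plus strand (RefSeq, GRCm38.p6), 150 to 51 bases before the RefSeq start, and the capitals mark the match, which begins 108 bases before the start.
Igfbp1: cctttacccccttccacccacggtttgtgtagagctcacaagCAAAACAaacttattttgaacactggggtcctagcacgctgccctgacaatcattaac
CAAAACA was found on either strand in 2064 of the 32851 promoter windows of 300 bases (6.28%), and in no window of the other axis genes that were searched. Transcription factors of the FOXO family bind this element in work on other samples, and neither their binding nor insulin was measured here.

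Igfbp2, a binding protein of juvenile and fasted liver (chromosome 1, 72824503 to 72852474, plus strand), stood at 298, 329 and 515 CPM (lowest, median, highest) in Cre Chow and at 460, 746, 932, 1118 and 1137 CPM in Cre MCD. In FLCN KO livers it stood at 310, 312, 313, 322 and 382 CPM on chow and at 648, 894 and 1214 CPM on MCD. The only overlap was in Cre mice, where library Cre MCD 3 lay below 2 chow livers. Igfbp2 rose by 1.21 on the log2 scale in Cre mice (SE 0.21, adjusted p = 3.9e-05) and by 1.42 (SE 0.21, adjusted p = 1.5e-05) in FLCN KO mice. The rise of Igfbp2 in Cre mice was 0.66 (SE 0.28, adjusted p = 0.091) within livers with Y-linked counts and 1.67 (SE 0.22, adjusted p = 4.6e-05) within livers with Xist.

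Igfbp3, the main carrier of IGF1 in blood (chromosome 11, 7206086 to 7213923, minus strand), is made largely by non-parenchymal cells of the liver. It stood at 13.8, 22.9 and 51.5 CPM (lowest, median, highest) in Cre Chow and at 21.3, 22.2, 23.3, 24.7 and 27.7 CPM in Cre MCD, a log2 fold change over all livers of -0.17 (SE 0.30, adjusted p = 0.66). Its mean went from 37.2 to 23.4 CPM in the Cre livers with Xist and from 16.2 to 24.5 CPM in those with Y-linked counts. Fitted within each kind of liver, the Igfbp3 value in Cre mice was -0.67 (SE 0.29, adjusted p = 0.069) with Xist and 0.62 (SE 0.24, adjusted p = 0.070) with Y-linked counts, and the difference between them was not tested. Over the 14 alternatives that did not leave out a single mouse it ran from -0.85 to 0.62, and 3 of them called it lower. Among these was the fit without the 5 poorly mapped chow libraries (-0.65, SE 0.26, adjusted p = 0.047). That fit keeps only chow livers with Xist, where Igfbp3 was higher, against MCD livers of both kinds. Diet and sex therefore cannot be told apart in it. In FLCN KO livers Igfbp3 fell from 14.8, 20.0, 23.0, 38.2 and 39.9 CPM on chow to 8.78, 13.8 and 20.0 CPM on MCD, by 0.98 on the log2 scale (SE 0.30, adjusted p = 0.011). Within livers with Y-linked counts the Igfbp3 value in FLCN KO mice was -0.27 (SE 0.24, adjusted p = 0.49), and without the 5 libraries with both Xist and Y-linked counts it was -0.83 (SE 0.38, adjusted p = 0.11). On MCD all FLCN KO livers were below all Cre livers for Igfbp3, by -0.79 (SE 0.30), with an adjusted p of 0.077 that did not pass. Without the 5 poorly mapped chow libraries this difference was -0.79 (SE 0.22, adjusted p = 0.019) and was called. The response of Igfbp3 to diet was not shown to differ between genotypes (interaction -0.82, SE 0.43, adjusted p = 0.25).

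Igfbp4, an inhibitory binding protein (chromosome 11, 99041244 to 99054392, plus strand), was the most abundant of the binding-protein transcripts on chow. It stood at 1715 ± 248 CPM in Cre Chow, 1564 ± 136 in Cre MCD, 1715 ± 129 in FLCN KO Chow and 1968 ± 209 in FLCN KO MCD. Its changes with MCD were -0.13 (SE 0.10, adjusted p = 0.28) in Cre and 0.20 (SE 0.10, adjusted p = 0.12) in FLCN KO mice. Of the summed CPM per kilobase of exon of Igfbp1 to Igfbp7, Igfbp4 made up 53.8% ± 6.57 in Cre Chow and 30.8% ± 7.34 in Cre MCD (SD, n = 6 and 5). Igfbp1 went from 8.39% ± 6.98 to 23.2% ± 2.21 of the same sum, and Igfbp2 from 28.1% ± 4.78 to 39.3% ± 7.92. FLCN KO livers had similar shares, with Igfbp4 at 53.2% ± 6.67 on chow and 35.1% ± 5.41 on MCD. The sum itself was higher on MCD, 1185 ± 185 against 725 ± 80.8 CPM per kilobase in Cre livers and 1289 ± 201 against 736 ± 64.3 in FLCN KO livers. These shares and sums are descriptions, and no test was run on them.

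**Figure D2:**
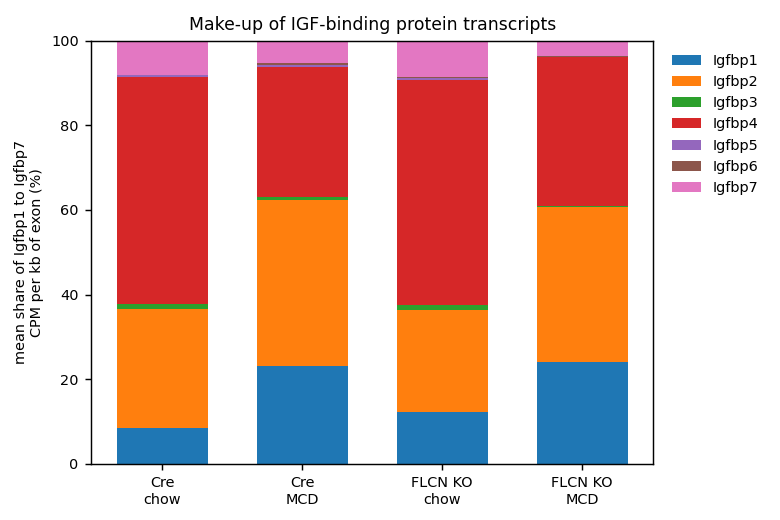
Mean share (y axis, %) of each of Igfbp1 to Igfbp7 in their summed CPM per kilobase of exon, by group on the x axis. Igfbp4 takes the largest share on chow (53.8% in Cre, 53.2% in FLCN KO). Igfbp2 has the largest mean share on MCD (39.3% and 36.6%), beside 30.8% and 35.1% for Igfbp4. In CPM, without division by exon length, Igfbp4 stayed above Igfbp2 on MCD.

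On MCD, Stat5b, Igfals, Ghr and Igfbp4 stood at higher levels in FLCN KO than in Cre livers. Stat5b was higher by 0.80 on the log2 scale (SE 0.12, adjusted p = 0.00016), with no overlap between groups, Igfals by 1.08 (SE 0.26, adjusted p = 0.0061), Ghr by 0.64 (SE 0.17, adjusted p = 0.015) and Igfbp4 by 0.33 (SE 0.10, adjusted p = 0.029). Even so, Ghr in FLCN KO MCD livers, at 198 ± 27.5 CPM, remained far from the 600 ± 100 CPM of FLCN KO Chow. Igfbp4 was called in 16 of 22 fits that left out 1 mouse, and was not called with the replicate number as a block. Groups did not overlap in 2 of the 10 genes, Stat5b and Igfbp3, beside 8.61% of all genes. These differences share the Cre MCD livers with the falls described above, and are not independent of them.

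The genotype difference on MCD was also fitted within each sex as read from the counts. In livers with Xist, the 2 mixed MCD libraries included, 4 genes were higher and 1 lower in FLCN KO (14.9% of all genes called): Igfals by 1.65 (SE 0.31, adjusted p = 0.0043), Ghr by 0.95 (SE 0.13, adjusted p = 0.00070), Stat5b by 0.96 (SE 0.14, adjusted p = 0.00093) and Igfbp4 by 0.44 (SE 0.13, adjusted p = 0.041), with Igfbp3 lower at -1.003 (SE 0.30, adjusted p = 0.040). Without the mixed libraries, which left 2 livers a group, 4 were higher (3.73% of all genes called): Ghr by 1.06 (SE 0.18, adjusted p = 0.017), Stat5b by 1.09 (SE 0.20, adjusted p = 0.022), Igfals by 1.40 (SE 0.21, adjusted p = 0.011) and Cish by 1.69 (SE 0.35, adjusted p = 0.035). Igfbp4, at 0.30 (SE 0.22, adjusted p = 0.47), and Igfbp3, at -0.88 (SE 0.30, adjusted p = 0.15), did not pass there. In livers with Y-linked counts, 2 Cre against 3 FLCN KO, none of the 10 passed (5.16% of all genes called), with Stat5b at 0.59 (SE 0.19, adjusted p = 0.10), Igfals at 0.47 (SE 0.22, adjusted p = 0.26) and Ghr at 0.25 (SE 0.27, adjusted p = 0.68), all of the same sign as in livers with Xist. Without the 5 libraries that hold both Xist and Y-linked counts, Stat5b was still called and Ghr, Igfals and Igfbp4 were not. That fit held fewer livers, and these losses are not set against the calls over all genes. The difference between the sexes itself was not tested. Of the 2 Cre MCD livers with Y-linked counts, Cre MCD 3 is the library with muscle transcripts. Without it Igf1 was also called higher in FLCN KO livers on MCD, and the calls of Stat5b, Igfals, Ghr and Igfbp4 stayed.

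**Figure D3:**
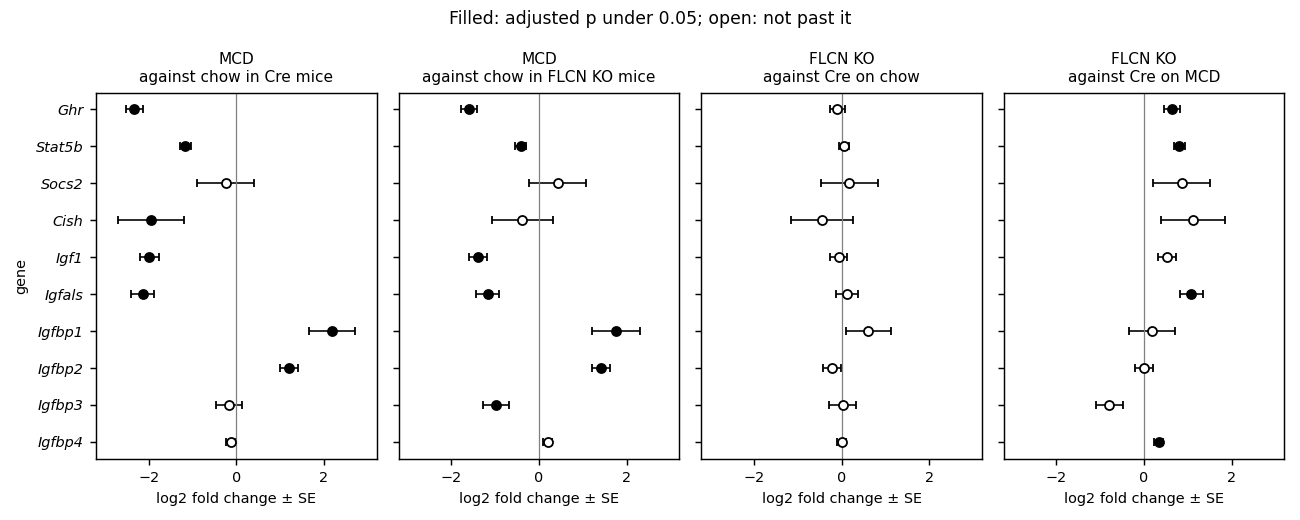
Log2 fold change ± SE (x axis) of each axis gene (y axis) in 4 comparisons, with filled points past an adjusted p of 0.05 (edgeR). Ghr, Stat5b, Igf1 and Igfals fell and Igfbp1 and Igfbp2 rose with MCD in both genotypes, no gene passed between genotypes on chow, and Ghr, Stat5b, Igfals and Igfbp4 were higher in FLCN KO livers on MCD.

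Of 19 other receptors and signal carriers of the axis that were tested, MCD raised 4 and lowered 6 in Cre mice, and raised 3 and lowered 6 in FLCN KO mice. These 10 and 9 called genes were near the share of all genes called, 57.5% and 45%, so the counts set the group apart in neither genotype. Igf2r, the receptor that clears IGF2, rose by 1.00 (SE 0.12, adjusted p = 6.0e-07) and 0.58 (SE 0.12, adjusted p = 0.00061). Igf1r, which hepatocytes express at low levels, rose in Cre mice from 3.72 ± 1.06 to 6.66 ± 1.26 CPM, by 0.83 (SE 0.19, adjusted p = 0.00094). Insr, the insulin receptor, fell by 0.75 (SE 0.12, adjusted p = 1.3e-05) in Cre and by 0.44 (SE 0.11, adjusted p = 0.0033) in FLCN KO mice. Prlr, the prolactin receptor, fell by 1.63 (SE 0.44, adjusted p = 0.0032) and 1.09 (SE 0.42, adjusted p = 0.040), but its values within livers with Y-linked counts were 0.015 and 0.089, neither of them called. None of the 19 passed between genotypes on chow, where 8.62% of all genes did. On MCD 2 of the 19, Stat5a (0.61, SE 0.18, adjusted p = 0.023) and Akt1 (0.29, SE 0.08, adjusted p = 0.013), were higher in FLCN KO livers, where 8.06% of all genes were. Stat5a lost its call without Cre MCD 3, and Prlr lost its call in FLCN KO mice in 8 of 22 fits that left out 1 mouse.

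Among 11 tested inhibitors of GH and insulin signalling, MCD raised 3 and lowered 1 in each genotype, where 57.5% and 45% of all genes were called. Trib3, a pseudokinase that binds AKT and is induced by amino acid shortage, rose from 8.11 ± 4.67 to 119 ± 73.9 CPM in Cre mice (3.88, SE 0.37, adjusted p = 2.5e-08) and from 7.67 ± 2.27 to 96.8 ± 32.8 CPM in FLCN KO mice (3.66, SE 0.39, adjusted p = 2.1e-07). Grb10, an adaptor that restrains the insulin and IGF1 receptors, rose by 0.70 (SE 0.29, adjusted p = 0.046) and 1.08 (SE 0.29, adjusted p = 0.0041), and on MCD it was higher in FLCN KO livers by 1.16 (SE 0.29, adjusted p = 0.0074). The rise of Grb10 in Cre mice lost its call in 13 of 22 fits without 1 mouse. On MCD 1 of the 11 was higher and 2 lower in FLCN KO livers, where 16.6% of all genes were called. The 2 were the phosphatase genes Ptpn6 and Ptpn1, by -0.33 (SE 0.08, adjusted p = 0.0076) and -0.27 (SE 0.08, adjusted p = 0.024), the latter lost in 4 of 22 fits without 1 mouse.

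A further list of 15 genes held IGF-binding proteins, proteases of the kind that cleave them, and the Igf2bp genes, whose products bind Igf2 mRNA and not IGF. Of these 15, 8 were abundant enough to test. In Cre mice 3 rose with MCD and none fell, where 29.3% of all genes rose and 28.2% fell: Igfbp6, from 0.896 ± 0.512 to 4.87 ± 4.00 CPM (2.42, SE 0.51, adjusted p = 0.00039, and 1.79, SE 0.46, adjusted p = 0.0022 without Cre MCD 3), the serine protease gene Htra3 (2.29, SE 0.30, adjusted p = 1.6e-06) and the RNA-binding protein gene Igf2bp2 (1.19, SE 0.30, adjusted p = 0.0019). In FLCN KO mice, where 22.5% of all genes rose and 22.5% fell, Htra3 (1.82, SE 0.29, adjusted p = 2.6e-05) and Igf2bp3 (2.19, SE 0.62, adjusted p = 0.0067) rose and Htra1 (-1.75, SE 0.39, adjusted p = 0.00094) and Igfbp7 (-0.46, SE 0.13, adjusted p = 0.0064) fell. On chow 3 of the 8 were higher in FLCN KO livers, where 8.62% of all genes were called, and of these 3 only Htra3 is not one of the RNA-binding protein genes: Htra3 (1.18, SE 0.31, adjusted p = 0.021), Igf2bp2 (1.04, SE 0.30, adjusted p = 0.036) and Igf2bp3. These chow calls were lost without 1 mouse in some fits, that of Igf2bp2 in 7 of 22, that of Htra3 without FLCN KO Chow 4 (0.92, adjusted p = 0.10) and that of Igf2bp3 without FLCN KO Chow 3 (3.12, adjusted p = 0.052). Igf2bp3 stood at 0.0614 ± 0.0596 CPM in Cre Chow, a level of 3 counts or fewer per library, and at 1.06 ± 1.17 CPM in FLCN KO Chow. On MCD it was higher in FLCN KO livers, at 4.74 ± 3.76 against 0.239 ± 0.157 CPM (adjusted p = 0.00039), the only one of the 8 called higher there. The 2 called lower were Igfbp6, given with the stellate cell markers, and Igfbp7 (-0.43, adjusted p = 0.027, lost in 5 of 22 fits without 1 mouse), where 16.6% of all genes were called and 8.06% called higher.

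Genes known as targets of the sex-specific GH pattern differed widely between livers with Y-linked counts and livers with Xist on chow, and by less on MCD. GH was not measured, and on chow the livers with Y-linked counts are the poorly mapped libraries. Of 24 tested male-biased genes that GH pulses are known to keep high, 21 were higher in livers with Y-linked counts than in livers with Xist in Cre Chow and in FLCN KO Chow, with median log2 differences of 3.87 and 2.77. On MCD 22 of the 24 were higher in livers with Y-linked counts in Cre mice and 16 in FLCN KO mice, with medians of 0.41 and 0.42. Of 29 female-biased genes that GH pulses are known to hold low, 29 were higher in livers with Xist in Cre Chow and 27 in FLCN KO Chow, with median log2 differences (Y-linked minus Xist) of -7.26 and -5.49. On MCD 15 of the 29 were higher in livers with Xist in Cre mice and 23 in FLCN KO mice, with medians of -0.10 and -0.75. The medians are descriptions over genes that share livers.

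The change lay on both sides in livers with Y-linked counts. Their 24 male-biased genes summed to 22929 ± 7863 CPM in Cre Chow (n = 3) and to 2685 ± 801 CPM in Cre MCD (n = 2). The 29 female-biased genes summed to 135 ± 19.6 CPM in Cre Chow and 4401 ± 278 CPM in Cre MCD. In FLCN KO livers with Y-linked counts the same sums went from 23430 ± 686 to 1520 ± 96.4 CPM for male-biased and from 232 ± 2.98 to 4048 ± 218 CPM for female-biased genes (n = 2 and 3). In livers with Xist, the female-biased sum was 6354 ± 227 CPM in Cre Chow and 5391 ± 807 CPM in Cre MCD, and 4558 ± 1123 CPM in FLCN KO Chow and 5179 ± 391 CPM in FLCN KO MCD, so that its mean was lower on MCD in Cre and higher in FLCN KO livers. On chow the female-biased sums of the Y-linked livers ran from 114 to 234 CPM. On MCD they ran from 4204 to 4597 CPM in Cre livers, where the Xist livers ran from 4572 to 6186 CPM, and from 3796 to 4187 CPM in FLCN KO livers, below all 3 Xist livers at 4878 to 5621 CPM. Cyp4a14, a fatty acid hydroxylase gene and the most abundant of the 29 over the MCD livers of each genotype, made up 983 to 2773 CPM of the sums in the Y-linked livers on MCD. In the Cre livers with Xist it stood at 154 to 222 CPM on chow and at 1369 to 2451 CPM on MCD, while the sum of the 29 was lower on MCD. In the FLCN KO livers with Xist Cyp4a14 stood at 148 to 306 CPM on chow and at 2340 to 2742 CPM on MCD. That rise exceeded the rise of the mean sum there, so without Cyp4a14 the mean sum was lower on MCD in both genotypes.

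**Figure D4:**
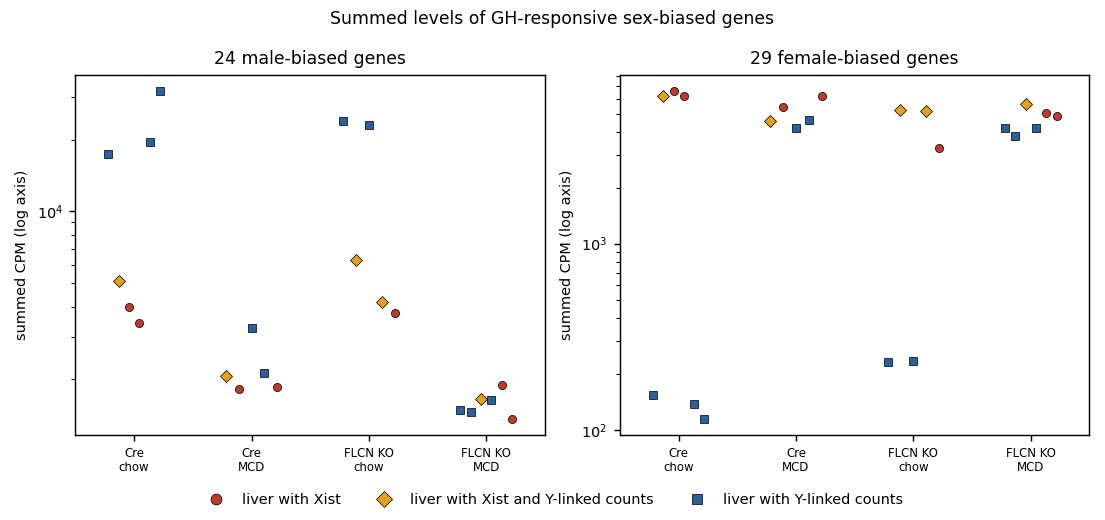
Summed CPM (y axis, log scale) of 24 male-biased and 29 female-biased GH-responsive genes in each of 22 livers, by group on the x axis. Circles are livers with Xist, diamonds livers with Xist and Y-linked counts, squares livers with Y-linked counts. Squares and the other symbols are far apart on chow (female-biased sums of 114 to 234 CPM against 3262 to 6614) and much closer on MCD (3796 to 4597 against 4572 to 6186).

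Fitted within livers with Y-linked counts, 22 of 24 male-biased genes were lower on MCD in Cre mice and none was higher, where 15% of all genes fell, and 23 fell and 1 rose in FLCN KO mice, where 11.5% of all genes fell. Of the 26 female-biased genes testable there, 21 rose and none fell in either genotype, where 18.5% and 9.32% of all genes rose. These livers are the chow libraries with the low uniquely mapped share against MCD libraries without it, so diet and mapping cannot be told apart in this fit. Livers with Xist have no such imbalance in mapping, but mixed libraries are included in these fits. Among them are FLCN KO Chow 2 and FLCN KO Chow 4, with male-biased sums of 6291 and 4198 CPM. The unmixed FLCN KO Chow 5 stood at 3746 CPM, and FLCN KO MCD livers with Xist at 1357 to 1881 CPM. Serpina1e was at 1514 and 558 CPM in the mixed pair against 50.5 CPM in FLCN KO Chow 5. The part of mixed libraries in the falls was not tested. In livers with Xist 17 of 23 male-biased genes were lower on MCD in each genotype, where 26.1% and 20.7% of all genes were, and 3 and 0 were higher. Of 29 female-biased genes 4 were higher and 17 lower in Cre mice, and 9 higher and 11 lower in FLCN KO mice, where 26.4% and 20% of all genes were higher.

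Between genotypes on MCD none of the 29 female-biased genes passed over all livers, where 16.6% of all genes did. In livers with Xist, mixed libraries included, 7 of the 29 were higher, 1 was lower and 21 did not pass in FLCN KO against Cre livers, where 7.09% of all genes were higher and 7.83% lower. In the same livers their interaction of genotype and diet was called positive for 7 of 29 and negative for none, where 3.15% of all genes were called positive. In livers with Y-linked counts it was called positive for none and negative for 1 of 26, where 0.422% of all genes were called negative. These fits rest on 2 or 3 livers per group, and the difference between the sexes was not tested.

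Hsd3b5, a steroid-reducing enzyme of male liver, fell from 430 to 1.55 CPM in Cre livers with Y-linked counts (-8.08, SE 0.80, adjusted p = 7.2e-05) and from 212 to 0.45 CPM in FLCN KO livers (-8.85, SE 0.73, adjusted p = 3.3e-05). Slco1a1, an organic anion transporter, fell from 693 to 7.41 CPM in the Cre livers (-6.52, SE 0.90, adjusted p = 0.00053). In livers with Xist (mixed libraries included), whose starting levels were lower, Slco1a1 fell as well, from 64.6 to 0.42 CPM (-7.25, SE 1.03, adjusted p = 7.6e-05). Serpina1e, the most abundant of the male-biased genes over the chow livers of each genotype, stood at 3805 ± 4650 CPM in Cre Chow, most of it in livers with Y-linked counts, and at 6.73 ± 7.26 CPM in Cre MCD. It belongs to a cluster of near-identical genes among which reads can be misassigned. Ces2e, a carboxylesterase gene, was the 1 of 24 male-biased genes that passed between genotypes on MCD, where 16.6% of all genes did, lower in FLCN KO livers by -0.73 (SE 0.15, adjusted p = 0.0017), and its response to diet differed too (interaction -0.84, SE 0.21, adjusted p = 0.015).

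Among the female-biased genes, Sult1e1, the estrogen sulfotransferase, rose in both sexes. Over all livers it went from 6.21 ± 6.82 to 375 ± 113 CPM in Cre mice (5.90, SE 0.59, adjusted p = 4.1e-08) and from 1.49 ± 1.18 to 165 ± 60.1 CPM in FLCN KO mice (6.82, SE 0.69, adjusted p = 9.8e-08). Sult3a1 and A1bg went the other way in livers with Xist, Sult3a1 from 165 to 0.15 CPM, a level of a few reads per library (adjusted p = 4.7e-07), and A1bg from 797 to 3.01 CPM (-8.02, SE 1.30, adjusted p = 0.00021) in Cre mice. The list therefore did not move as 1 block in livers with Xist. Between genotypes on chow Sult1e1 was lower in FLCN KO livers (-2.11, SE 0.62, adjusted p = 0.036), a call lost in 5 of 22 fits without 1 mouse. It was the only 1 of the 29 called there, where 8.62% of all genes were. The next genes were chosen after their values were seen, as textbook markers of the female pattern: Cux2, a transcriptional repressor, and Cyp2b9, a drug-metabolizing enzyme. In Cre livers with Y-linked counts, Cyp2b9 rose from 0.55 to 208 CPM (8.52, SE 0.57, adjusted p = 1.1e-05) and Cux2 rose from 0.25 to 5.17 CPM (4.35, SE 0.56, adjusted p = 0.00033). In Cre livers with Xist, Cyp2b9 instead fell from 547 to 124 CPM (-2.15, SE 0.14, adjusted p = 1.6e-07) and Cux2 from 24.0 to 2.92 CPM (-3.03, SE 0.61, adjusted p = 0.0011). Bcl6, a repressor that is itself male-biased and STAT5-regulated, was chosen in the same way and fell by 2.13 (SE 0.51, adjusted p = 0.0013) in Cre and 3.06 (SE 0.51, adjusted p = 5.5e-05) in FLCN KO mice over all livers.

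Of 15 regulators of the hepatic GH response, MCD raised 1 and lowered 11 in Cre mice, where 29.3% of all genes rose and 28.2% fell. Of the same 15, MCD raised 2 and lowered 5 in FLCN KO mice, where 22.5% rose and 22.5% fell, and the difference between these counts was not tested. Fgf21, a hormone of amino acid shortage that is known to blunt GH signalling, rose from 2.32 ± 1.73 to 46.3 ± 36.2 CPM in Cre mice (4.33, SE 0.50, adjusted p = 2.7e-07) and from 1.37 ± 0.871 to 15.4 ± 4.16 CPM in FLCN KO mice (3.50, SE 0.54, adjusted p = 2.0e-05). On MCD Fgf21 was lower in FLCN KO livers by -1.59 (SE 0.43, adjusted p = 0.013), which did not pass without Cre MCD 2 (-1.02, adjusted p = 0.077). Klb, the coreceptor of FGF21, was lower in FLCN KO livers on chow (-0.57, SE 0.17, adjusted p = 0.036, lost in 8 of 22 fits without 1 mouse), fell with MCD in Cre mice (-0.82, SE 0.17, adjusted p = 0.00030), and gave an interaction of 1.00 (SE 0.24, adjusted p = 0.013). Onecut1, encoding hepatocyte nuclear factor 6, fell by 2.77 (SE 0.63, adjusted p = 0.00077) and 2.31 (SE 0.60, adjusted p = 0.0034), and by 1.93 without Cre Chow 6 and 1.56 without FLCN KO Chow 2. Foxa2 fell by 1.44 (SE 0.21, adjusted p = 7.4e-06) and 0.68 (SE 0.21, adjusted p = 0.010; without FLCN KO Chow 2 -0.41, adjusted p = 0.071), and Nr3c1, the glucocorticoid receptor, fell by 0.97 (SE 0.13, adjusted p = 1.8e-06) and 0.68 (SE 0.13, adjusted p = 0.00017). Lepr, the leptin receptor, rose with MCD in FLCN KO mice from 3.57 ± 2.18 to 26.5 ± 5.91 CPM (2.87, SE 0.56, adjusted p = 0.00026), and on MCD it was higher there than in Cre livers by 1.54 (SE 0.51, adjusted p = 0.042), a call lost in 9 of 22 fits without 1 mouse.

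Markers of cell types also changed with MCD, and some differed between genotypes. The 12 hepatocyte markers summed to 149298 ± 18982 CPM in Cre Chow and 100358 ± 15126 in Cre MCD, and to 123639 ± 19811 and 81468 ± 9233 in FLCN KO livers, with Alb the most abundant in every group and no marker at 0. With MCD 9 of the 12 fell in Cre mice (28.2% of all genes) and 10 in FLCN KO mice (22.5%), with medians of -0.77 and -0.65. The falls of Ghr, Igf1 and Igfals in the same groups were larger than these medians, and that of Stat5b was larger in Cre mice (1.17) and smaller in FLCN KO mice (0.42). In whole liver, fewer hepatocytes and less RNA per hepatocyte cannot be told apart. On MCD the mean hepatocyte sum was lower in FLCN KO than in Cre livers, and Ghr, Stat5b and Igfals were higher. The part of hepatocyte content in the results for the axis genes was not tested.

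The counts that follow stand beside 29.3% of all genes raised and 28.2% lowered by MCD in Cre mice, and 22.5% each way in FLCN KO mice. Of 11 stellate cell and fibroblast markers, MCD raised 8 and lowered none in Cre mice, where their sum, led by Dcn, was 361 ± 87.0 CPM on chow and 682 ± 160 on MCD. In FLCN KO mice 1 rose and 1 fell (421 ± 87.0 and 457 ± 48.5 CPM). On MCD 7 of the 11 were lower in FLCN KO livers, where 16.6% of all genes were called in either direction. Igfbp6 was lower there as well (-1.56, SE 0.48, adjusted p = 0.028), a call lost in 4 of 22 fits without 1 mouse. Among these was the fit without Cre MCD 3 (-0.93, SE 0.43, adjusted p = 0.14). Of 14 Kupffer cell and macrophage markers, with Clec4f the most abundant on chow, Cd5l in Cre MCD and Gpnmb in FLCN KO MCD, MCD raised 8 and lowered 2 in Cre mice, and raised 3 and lowered 4 in FLCN KO mice. Of 10 endothelial markers, led by Stab2 except in Cre Chow, where Clec4g led, 1 rose and 5 fell in Cre mice and 7 fell in FLCN KO mice, and of 6 bile duct markers, led by Spp1, 3 rose in Cre mice and none passed in FLCN KO mice. Between genotypes on MCD, 1 Kupffer cell and macrophage marker was higher in FLCN KO livers and 3 were lower. Endothelial markers gave 1 higher and 1 lower, bile duct markers 1 higher, and hepatocyte markers 3 lower and none higher. Over all genes 8.06% were called higher and 16.6% either way. On chow 4 Kupffer cell and macrophage markers were higher and none lower, where 8.62% of all genes were called. The part of these cell types in the results for the axis genes was not tested. The skeletal muscle markers were all called higher with MCD in Cre mice, and all called lower in FLCN KO than in Cre livers on MCD. The excess in Cre MCD was carried mainly by Cre MCD 3. Without that library each axis gene called for MCD in Cre mice kept its call and direction.

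Among 9799 genes with a mean of at least 5 CPM, those whose log2 CPM ran closest to a member over the 22 livers, after each gene's own mean was subtracted, were named for 4 members. For Igf1 the closest was Slc17a2, a solute carrier gene, with a root-mean-square difference of 0.20 log2 units where Igf1 itself had an SD of 0.93, followed by Gm48633 and a Riken gene at 0.31. For Igfbp2 (SD 0.72) they were Hmga1 at 0.26, the triglyceride lipase gene Pnpla2 at 0.28 and Cyb561d2 at 0.29. Socs2 (SD 1.19) and Igfbp1 (SD 1.53) varied more and had less close companions. The nearest genes were Slc25a30, Gbp11 and Tut4 at 0.88 to 0.93 for Socs2, and Tmprss2, Slc51b and Mfge8 at about 0.80 for Igfbp1. The livers share their diet, genotype and sex, so this likeness follows the groups and carries no test.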

How the data were processed

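Liver mRNA libraries of 22 mice were sequenced as single-end reads. Per the labels and the study's methods, reads were trimmed with Trimmomatic, aligned to GRCm38 with STAR and counted with HTSeq; tool versions, the strand setting and any collapsing of molecular identifiers are not given in the sources used here. The authors deposited raw read counts per gene, whole numbers without normalization, for 55573 genes. Every column matched 1 sample title.

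Genes averaging 10 or more counts per library were fitted in 1 model of the 4 groups with edgeR 4.0.16 (TMM, quasi-likelihood test, two-sided; R 4.3.3), p-values being adjusted by the Benjamini-Hochberg method across the 14062 genes, with a threshold of 0.05. CPM use TMM library sizes; errors beside means are SDs, and fold changes are log2. Depth was 13751347 to 21144388 counted reads per library. Gene positions are from GENCODE M21, promoters from RefSeq. Mice of a group are separate animals.

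The 10 genes and all lists were chosen with earlier results of these data known, and no list was tested as a set. Named list genes are at most 3 per direction and comparison, those with the largest change among called genes with a group mean of at least 1 CPM, unless said otherwise. A liver was taken as having Xist at 10 CPM or more, and Y-linked counts at a summed 5 CPM or more; as labels give no sex, this is read from the data. Uniquely mapped shares come from the study's supplementary statistics. Alternatives were RLE size factors, filters on low counts, limma-voom (limma 3.58.1), DESeq2 1.42.0, 2-group fits, covariates, each sex alone, a replicate block and leaving out each mouse. The fits on livers with Xist including mixed libraries, and without the 5 mixed libraries, were chosen after seeing the data. The fit was also run on simulated counts that held no sex or mapping differences, so that run does not bear on those.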

Additional observations from a re-analysis of the deposited data

Results flagged for a closer look

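Single livers far from the rest of their group were looked for in 44 groups of 5 or 6 libraries (the 10 axis genes and Flcn), a screen in which chance flags about 1 in 20 groups. Ghr was 214 CPM in Cre MCD 3, the library with muscle transcripts, above the other 4 Cre MCD livers. Socs2 was 132 CPM in Cre Chow 4 and 137 CPM in FLCN KO Chow 2, each far above its group. Igfbp2 was 382 CPM in FLCN KO Chow 1, above 4 livers at 310 to 322 CPM. The response of Stat5b to MCD differed between genotypes, with an interaction of 0.75 on the log2 scale (adjusted p = 0.012, edgeR): all 5 Cre MCD livers were below all 6 FLCN KO MCD livers.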

How the results depend on the processing

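Over 36 alternatives, the values for the 10 genes gave 1760 comparisons with those reported: 1703 kept their direction and side of the threshold, 34 lost a call, 23 gained one and none turned a call around. Leaving out 1 mouse gave 6 to 7 called genes for MCD in Cre mice, 7 for MCD in FLCN KO mice, 0 between genotypes on chow, 3 to 5 between genotypes on MCD, and 1 to 3 for the interaction. The counts of calls in this section are not set beside the share of all genes in the same fits. Without the 5 libraries with both Xist and Y-linked counts, Stat5b, Igfbp1 and Igfbp3 lost their calls for MCD in FLCN KO mice. Ghr, Igfals and Igfbp4 lost theirs between genotypes on MCD, and Stat5b lost that of the interaction. With livers with Y-linked counts alone, 0 were called between genotypes on MCD and 0 for the interaction. The interaction called 2 genes with limma-voom, DESeq2 or sex as a covariate, and 3 in livers with Xist; the cause was not tested. Igfbp4 on MCD lost its genotype call in 6 of 22 fits without 1 mouse. Without the 5 chow libraries with under 75% uniquely mapped reads, Igfbp3 was also called lower with MCD in Cre mice and lower in FLCN KO livers on MCD. Igfbp1 lost its call for MCD in FLCN KO mice, and the other calls of the 10 genes stayed. That fit keeps only chow livers with Xist, so diet and sex cannot be told apart in its values for MCD against chow. Igf2bp3 stood at 3 counts or fewer per library in Cre Chow, so its folds against that group rest on few reads.

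In livers with Y-linked counts alone, the value for MCD in Cre mice turned to 0.015 for Prlr, 4.35 for Cux2, 8.52 for Cyp2b9 and 2.66 for A1bg, and in FLCN KO mice to 0.089 for Prlr, 6.86 for Cyp2b9, 5.90 for A1bg and 2.23 for Cyp2c69.

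Whether replicate numbers pair the samples was not settled. The deviations of same-numbered libraries from their group means correlated over 0.1 in 0, 1, 3 and 2 of 5 pairs in the 4 comparisons. For FLCN KO against Cre on MCD all 5 pairs were positive, from 0.06 to 0.26 with a mean of 0.13. The mean over all pairs of libraries across those groups was 0.0002. Sex was not removed from these deviations, so they cannot decide whether the numbers mark pairs. With the number as a replicate block, 6 genes were called for MCD in Cre mice (Cish lost), 7 in FLCN KO mice, 0 between genotypes on chow, 3 on MCD (Igfbp4 lost) and 1 for the interaction, and the chow difference of Flcn was -0.57 (adjusted p = 0.053).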
